A study of Caenorhabditis elegans with 4 samples.

Results

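Heterochronic genes set the order in which larval cells of Caenorhabditis elegans take on stage-specific fates. The 6 described here, lin-14, lin-28, hbl-1, lin-41, lin-29 and lin-42, were chosen by symbol, and the embryonic binding of the transcription factor UNC-62 around them was read from lists of chromatin immunoprecipitation sequencing (ChIP-seq) regions. They are 6 of the 19971 protein-coding genes placed on the 6 chromosomes. Within 5 kb of their spans lay 24 of the 7964 regions in the list for the whole series, 27 of 7782 in the replicate 1 list and 13 of 3138 in the replicate 2 list.

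In the pathway, the early-acting genes lin-14, lin-28 and hbl-1 hold cells in early larval programmes until microRNAs of the lin-4 and let-7 families repress them. The RNA-binding protein LIN-41 then keeps LIN-29, the zinc finger factor that drives the switch to adult epidermis, from being made too early, and LIN-42, related to the clock protein Period, times the series of moults. UNC-62 is the worm's homeodomain protein of the MEIS/Homothorax class, a family that binds DNA together with PBC and Hox proteins.

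All embryos were of strain OP600, labelled hermaphrodite and grown at 20 °C. They carry the mutation unc119(ed3) and the transgene wgIs600, which holds unc-62 fused to TY1, EGFP and FLAG tags together with unc119. The transgene was introduced by bombardment and the strain was outcrossed. The study has 2 groups, both of this strain and stage: UNC-62 ChIP with an anti-GFP antibody, in 2 replicates, and Input, the sonicated chromatin before precipitation, in 2 replicates. Regions of the Input samples were not analysed here, so the comparisons that follow are between places in the genome and between replicates. The lysates were of whole embryos, so a region does not say in which cells UNC-62 was bound.

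Regions come with a single value, a p-value or q-value that the authors deposited without naming it, and a smaller value means a stronger region. Strength is given as a rank within a list, from 1 for the strongest. Depth is unknown because read counts are not part of the lists, and the labels do not say whether separate cultures gave the replicates. Replicate 1 admitted weaker regions, with values up to 0.00999 against 0.000998 in replicate 2, so a region that only replicate 1 holds may be missing from replicate 2 for its limit or its depth. Region positions are on WS220 as the authors gave them. Gene spans came from the WBcel235 gene table, which differs by about 100 bp at most, so distances are from the region's midpoint and are good to about 0.1 kb.

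The window asked for runs from 5 kb upstream of a gene to 1 kb past its end. Strand was not used here, so "below" and "above" mean towards lower and higher chromosome positions and do not say which side is upstream. The stretch within 1 kb of the span is inside the window whichever way the gene runs, and held 16 regions of the series list. Of the flanks from 1 to 5 kb, which held 5 regions below and 3 above, the window takes 1 per gene. The count in the windows is therefore at least 18 and at most 22.

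UNC-62 regions were found at 5 of the 6 genes, and lin-29 had none. The same 5 genes had a region within 1 kb in all 3 lists, and each of the 5 had at least 1 region that both replicates held. Over all protein-coding genes, 28.1% had a series region within 1 kb, 27.3% a replicate 1 region, 12.4% a replicate 2 region and 11.8% a series region found in both replicates. Within 5 kb the share of all genes was 52.2%. The heterochronic genes are long, with a median span of 12.7 kb against 2.0 kb for all protein-coding genes, and longer spans hold more regions. Of protein-coding genes with spans of 3 to 8 kb, the range of lin-28, hbl-1 and lin-41, 37.2% had a region within 1 kb, and of those of 15 to 21 kb, the range of lin-14, lin-42 and lin-29, 70.2% did.

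Counted per length, the stretches within 1 kb of the 6 spans held 1.87 regions per 10 kb. The same quantity was 0.77 over all protein-coding genes, 0.77 over those of 3 to 8 kb and 0.928 over those of 15 to 21 kb. Regions covered 7.32% of the bases in these stretches, compared with 2.92% of the genome in the series list. The genes were not alike in this. The density was 3.86 regions per 10 kb at lin-28, 2.84 at lin-42, 2.24 at lin-14, 2.06 at lin-41, 1.31 at hbl-1 and 0 at lin-29. These are descriptions of 6 named genes, and no test was made of them.

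**Figure D1:**
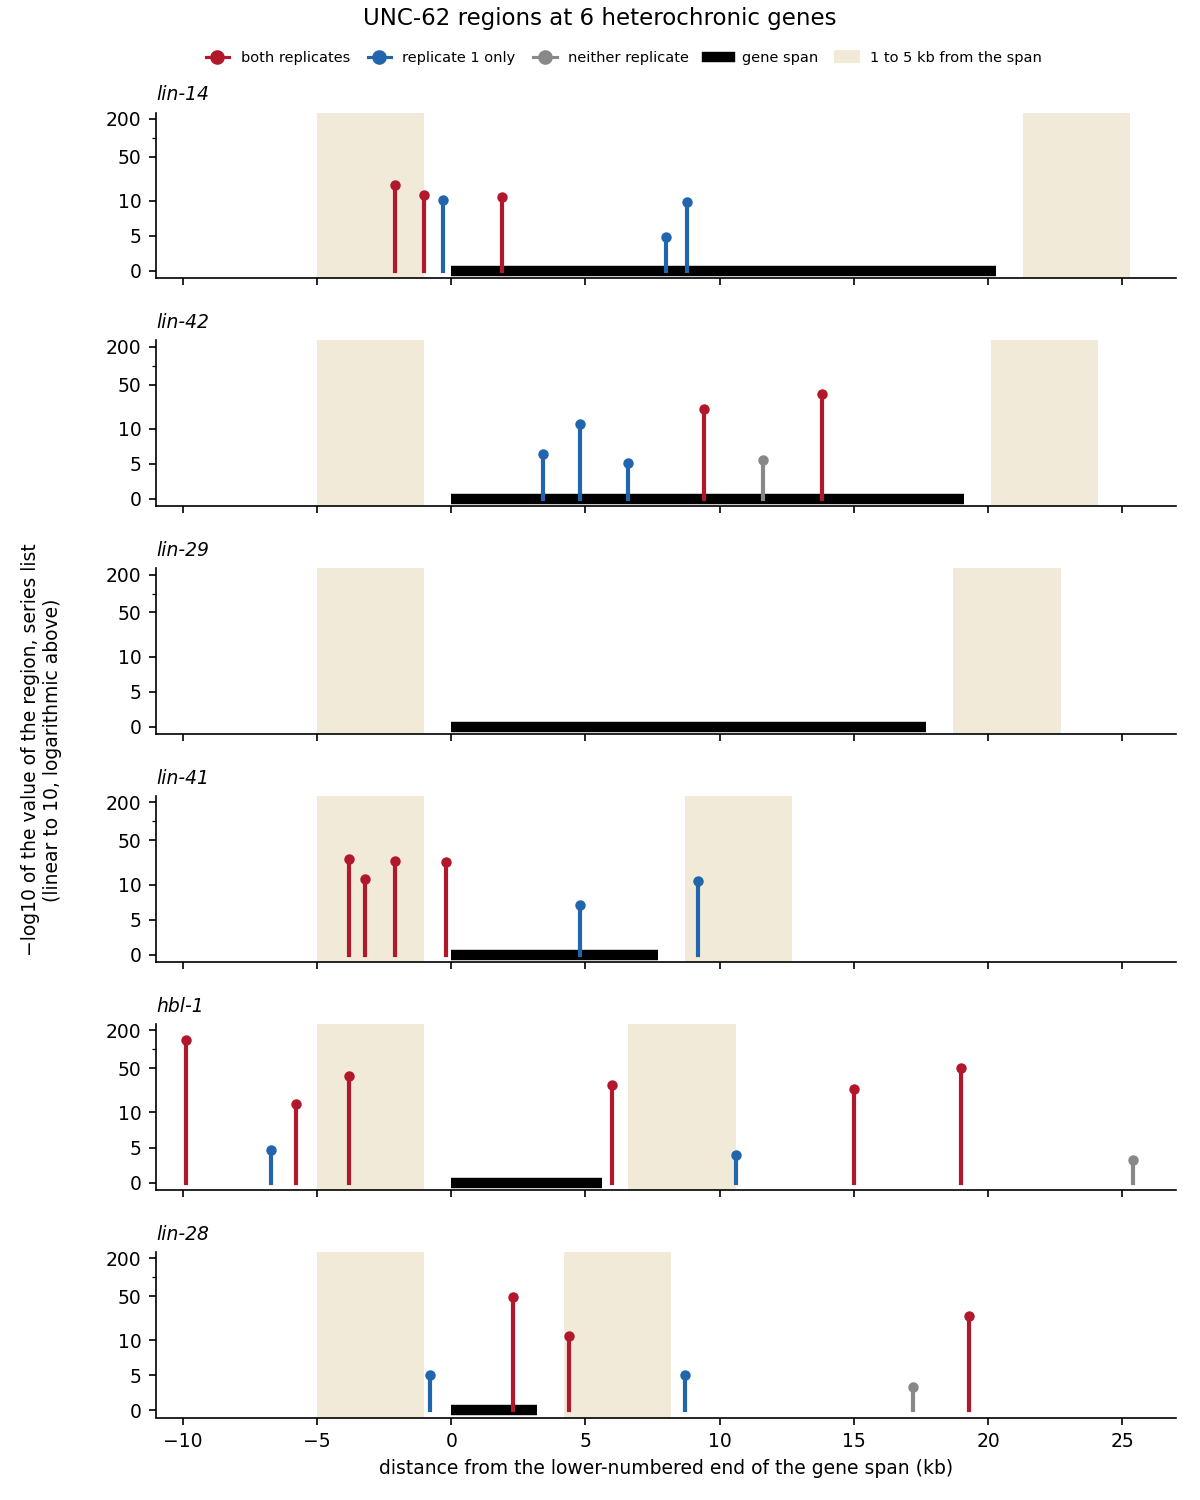
UNC-62 regions of the series list along 6 heterochronic genes. The x axis is the distance in kb from the lower-numbered end of the gene span, each stem is 1 region, its height is −log10 of the value (linear to 10 and logarithmic above), colour gives the replicates that hold it, the black bar is the gene span and the shading marks 1 to 5 kb from it. All 6 regions of lin-42 lie inside its span, those within 5 kb of lin-14 lie below the span or in its lower part, and lin-29 has none in its span or within 5 kb.

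The regions at lin-14, which encodes a nuclear protein needed for the fates of the first larval stage and is the classic target of the lin-4 microRNA, were gathered at the lower-numbered end of the gene (CELE_T25C12.1, chromosome X, span 20.3 kb). There were 6 in the series list, 3 below the span and 3 inside it. The strongest was chrX:11463016-11463921, 906 bp wide and 2.1 kb below the span, with a value of 4.14e-18 (rank 1414 of 7964) in the series list. In replicate 1 its value was 2.7e-15 (rank 995 of 7782) and in replicate 2 it was 1.86e-06 (rank 1404 of 3138). Both replicates held it, in the stronger 50% of each list.

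Next to it lay chrX:11464391-11464770, 1.0 kb below the span (series rank 2171), which both replicates held, and chrX:11465098-11465450, 0.3 kb below (rank 2640), which only replicate 1 held. Inside the span, 1.9 kb from its lower end, chrX:11467129-11467716 (rank 2382) was held by both replicates, though weakly in replicate 2, at rank 2690 of 3138. The last 2 were neighbours, chrX:11473394-11473737 (rank 5499) and chrX:11473994-11474808 (rank 2819), at 8.0 and 8.8 kb from the lower end. Only replicate 1 held them. From there to the upper end of the span, 11.5 kb away, and in the 5 kb above it no region was listed. Of 215 protein-coding genes with spans of 15 to 21 kb, 88.4% had fewer regions within 1 kb than the 5 of lin-14, and 6.05% had more.

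The strongest region at any of the 6 genes lay inside lin-28, which encodes an RNA-binding protein that blocks the maturation of let-7 and keeps cells in the programme of the second larval stage (CELE_F02E9.2, chromosome I, span 3.2 kb). This was chrI:8409675-8410217, 543 bp wide, 2.3 kb from the lower and 0.9 kb from the upper end of the span. Its value was 6.05e-50 in the series list (rank 251 of 7964), 2.95e-32 in replicate 1 (rank 269 of 7782) and 1.95e-15 in replicate 2 (rank 309 of 3138). It was thus among the strongest 10% of all 3 lists.

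A further region, chrI:8411826-8412153, lay 1.2 kb above lin-28, at rank 2289, and both replicates held it. Edge to edge, it lay 1.0 kb from lin-28 and closer to the neighbouring gene F02E9.7, at 0.3 kb. On the other side, chrI:8406695-8406940, 0.8 kb below lin-28, was weak (rank 5223, replicate 1 only) and overlapped the neighbour F02E9.1. Replicate 1 also listed a stretch of 30 bp, chrI:8411235-8411264, 0.4 kb above the span, which overlapped no region of the series list. In count, the 2 regions of lin-28 within 1 kb exceeded 89.6% of the 4867 protein-coding genes of 3 to 8 kb.

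At hbl-1, which encodes a zinc finger factor related to Hunchback that keeps adult fates off and is repressed by let-7 family microRNAs, the regions lay outside the gene, on either side of it (CELE_F13D11.2, chromosome X, span 5.6 kb). The closer was chrX:5827827-5828400, 0.4 kb above the span, with a value of 9.58e-28 (rank 736) in the series list, 2.57e-15 (rank 993) in replicate 1 and 2e-11 (rank 556) in replicate 2. The stronger was chrX:5817978-5818718, 741 bp wide and 3.8 kb below the span, overlapping F13D11.14 and F13D11.21, which are not protein-coding. Its value was 4.32e-38 (rank 441) in the series list, 1.09e-25 (rank 430) in replicate 1 and 1.98e-11 (rank 554) in replicate 2. In replicate 2 the regions were thus nearly level, whereas replicate 1 ranked the one below the gene higher.

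The third region counted for hbl-1, chrX:5832562-5832946, stood at the limit of the window, 5.0 kb above the span, overlapped the gene F13D11.4 and was weak (rank 6388, replicate 1 only). It is the farthest member region counted. Just outside the limit were chrI:8416246-8416413, 5.5 kb above lin-28 (rank 5288), and chrX:5816061-5816709, 5.8 kb below hbl-1 (rank 1920). Inside the hbl-1 span the series list had no region, and replicate 1 alone listed chrX:5823860-5824084, near the end of its list at rank 7177 of 7782. With 1 region within 1 kb, hbl-1 had more than 62.8% of the genes of 3 to 8 kb and the same number as 26.8% of them.

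At lin-41, which encodes a TRIM-NHL RNA-binding protein and is a main target of let-7, 4 regions stood in a row over the 3.8 kb below the span, and both replicates held all 4 (CELE_C12C8.3, chromosome I, span 7.7 kb). The closest was chrI:9334469-9334816, which reaches the end of the span with its midpoint 0.2 kb below it. Its value was 2.17e-23 (rank 989) in the series list, 5.03e-15 (rank 1024) in replicate 1 and 2.96e-07 (rank 1168 of 3138) in replicate 2. The other 3 were chrI:9332475-9332868, 2.1 kb below (series rank 910), chrI:9331370-9331855, 3.2 kb below (rank 2237), and chrI:9330788-9331128, 3.8 kb below (rank 814). Of these 4 regions, 3 thus had nearly the same rank, between 814 and 989.

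These 3 farther regions lay nearer to another protein-coding gene, cbl-1, than to lin-41, and the farthest of them overlapped cbl-1. Which gene such a region serves cannot be told from position. The remaining regions of lin-41 were held by replicate 1 only. They were chrI:9339475-9339685 inside the span, 4.8 kb from its lower end (rank 3919), and chrI:9343786-9344169, 1.5 kb above the span (rank 2349), which lay nearer to M04C9.2. Replicate 1 also listed a stretch of 32 bp, chrI:9333139-9333170, 1.6 kb below the span (rank 6479 of 7782), which overlapped no region of the series list. All 6 series regions of lin-41 belonged to the stronger 50% of the series list. Its 2 regions within 1 kb exceeded 89.6% of the genes of 3 to 8 kb. Counted within 5 kb on both sides, its 6 regions exceeded 98.9% of them. The span of lin-41 is near the upper limit of that class. Among genes of 5 to 8 kb the 90th percentile was 2 regions within 1 kb, the number at lin-41.

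lin-42, the Period-related gene whose product rises and falls with each moult, had as many regions as lin-14 in the series list, and all 6 lay inside its span (CELE_F47F6.1, chromosome II, span 19.1 kb). None lay within 5 kb outside it. They stood 1.4 to 2.8 kb apart, from 3.4 to 13.8 kb from the lower end. The strongest was the last of the row, chrII:1246739-1247288, 550 bp wide, with a value of 1.08e-35 (rank 487) in the series list, 9.07e-23 (rank 525) in replicate 1 and 3.13e-13 (rank 414) in replicate 2. It was followed in strength by chrII:1242467-1242840, 9.4 kb from the lower end, with 3.75e-21 (rank 1148), 1.94e-12 (rank 1363) and 7e-08 (rank 1020). Both replicates held these, and they were the only regions of lin-42 that replicate 2 held.

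The other 4 regions of lin-42 were weaker. Replicate 1 alone held chrII:1237831-1238184 (rank 2309), chrII:1236535-1236762 (rank 4244) and chrII:1239703-1239967 (rank 5271). Neither replicate list held chrII:1244674-1244934 (rank 4833), the only region at the 6 genes of which this was true. Within 1 kb, the 6 regions of lin-42 exceeded the number at 94.0% of the protein-coding genes of 15 to 21 kb, and 2.33% of those genes had more.

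**Figure D2:**
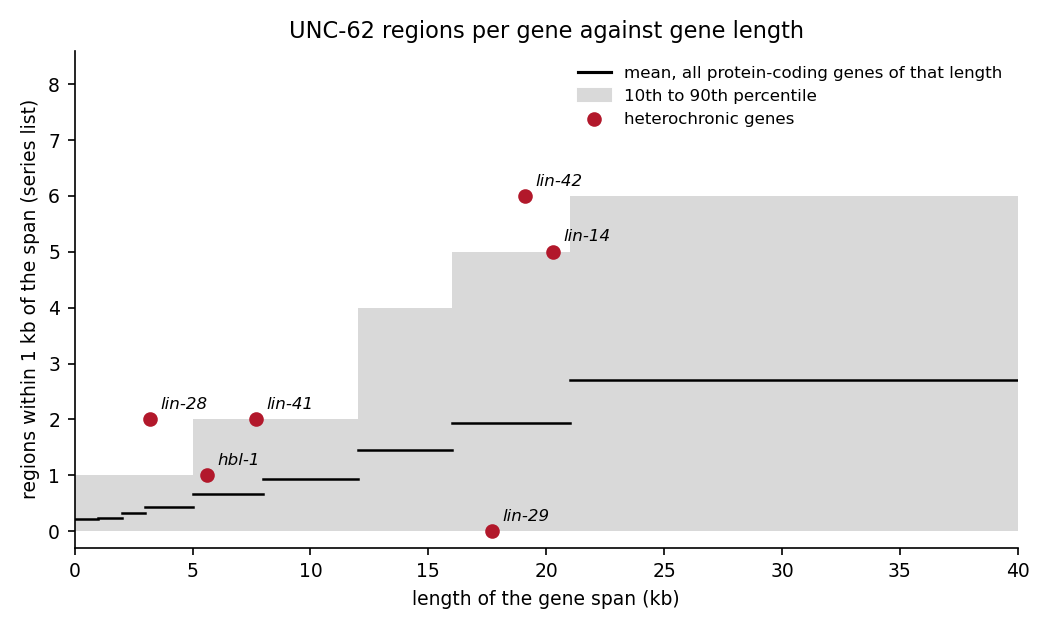
Number of series regions within 1 kb of a gene span (y axis) against the length of the span in kb (x axis), for 6 heterochronic genes (points), with the mean (line) and the 10th to 90th percentile (grey) over all protein-coding genes in classes of length up to 40 kb. lin-42 with 6 regions and lin-28 with 2 lie above the grey band, and lin-29 with 0 lies at its lower edge.

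lin-29, the zinc finger gene at the end of the pathway, stood in a stretch without regions (CELE_W03C9.4, chromosome II, span 17.7 kb). No list held a region inside the span or within 10 kb of it. In the series list the nearest were chrII:11904972-11905202, 12.4 kb from the lower end of the span edge to edge, and chrII:11953017-11953108, 17.7 kb from the upper end, and both were weak, at ranks 7141 and 6918. The stretch between them measured 47.8 kb in the series list and in replicate 1, and the one around lin-29 in replicate 2 measured 58.0 kb.

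Such stretches were not rare. In the series list 395 of 7958 gaps between neighbouring regions were as long or longer, and together they made up 30.4% of the length of the chromosomes. In replicate 2 it was 538 of 3132 gaps, with 59.1% of the length. Among the 215 protein-coding genes of 15 to 21 kb, 40 (18.6%) had no series region within 5 kb, and 32 had none in any list. At an unknown depth, a gene without regions is one at which none was called, which does not show that UNC-62 was absent.

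As a set, the 24 regions were stronger than the list they came from. Of them, 18 belonged to the stronger 50% of the series list, 9 to the strongest 25% and 4 to the strongest 10%. The 4 were the strongest region of lin-28, of lin-42 and of hbl-1, and the region 0.4 kb above hbl-1. The median rank was at 28.9% of the list, counted from the strongest, and the median width was 377 bp against 312 bp for the whole list. The genes differed, with 3 of 6 regions of lin-42 and 6 of 6 of lin-41 in the stronger 50%. Within 1 kb of a span it was 11 of 16. By place, 11 regions lay inside a span, 9 below and 4 above. The member was the nearest protein-coding gene for 17 of the 24, and for 15 of the 16 within 1 kb. Among annotated genes of any kind but piRNA genes, it was the nearest for 13 of the 24. Of the 1537 series regions on X, 9 were those of lin-14 and hbl-1, and of the 1273 on II, 6 were those of lin-42.

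Both replicates held 13 of the 24 regions (54.2%, exact 95% interval 32.8 to 74.4%), replicate 1 alone held 10, and 1 was in neither. Over the whole series list the share in both was 36.7%, which lies inside that interval. The difference was not tested. Agreement followed strength. In the stronger 50% of the list, both replicates held 13 of 18 regions at these genes (72.2%), close to the 70.4% of all regions there. In the weaker 50% they held 0 of 6, against 2.96% of all. With 6 regions, a share of up to 45.9% would be within the exact 95% interval. These intervals cover the counting of regions only. They take regions as independent, although several lie close together at the same gene, so they may be too narrow.

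**Figure D3:**
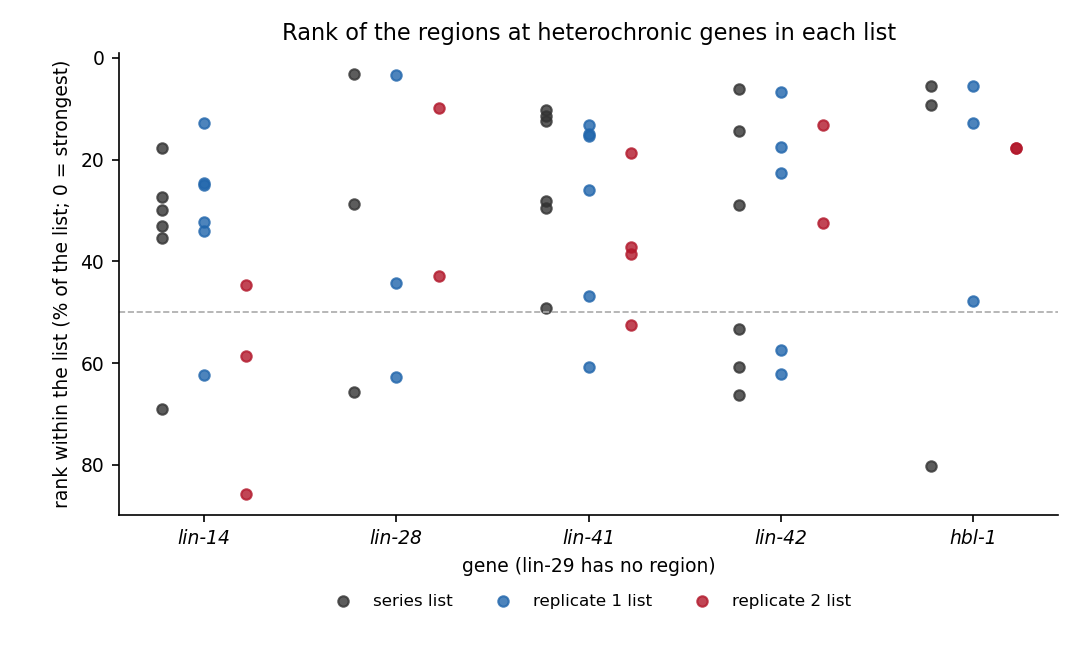
Rank within each list of the 24 regions at 5 heterochronic genes, as a percentage of the list with 0 at the top for the strongest (y axis), in the series list (black), the replicate 1 list (blue) and the replicate 2 list (red). A series region with no match in a replicate has no point there, and the strongest region of lin-28 lies in the first 10% of every list.

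The wider pathway was read from 26 further genes, 21 protein-coding and 5 for microRNAs. Regions lay within 1 kb of 16 of the 21 protein-coding genes in the series list and in replicate 1, and of 10 of the 21 in replicate 2, against the 28.1%, 27.3% and 12.4% of all protein-coding genes given above. At 10 of the 21 a series region was found in both replicates, against 11.8%. Their median span was 6.3 kb, and the share for spans of 3 to 8 kb was 37.2% in the series list. Their spans ran from 1.0 kb at col-19 to 22.5 kb at daf-12, so that share is not a like background for all of them. For the replicate lists, only shares over genes of all lengths were taken. None of the 5 microRNA genes, lin-4, let-7, mir-48, mir-84 and mir-241, had a region within 1 kb, compared with 28.1% of the 260 microRNA genes of the table. These 5 are few, and the difference was not tested. The only one with a region within 5 kb was let-7, with chrX:14746955-14747305 at 1.8 kb above (rank 2595, held by both replicates).

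Of the genes for microRNA silencing and RNA binding in this list, ain-1, a GW182-like partner of the Argonautes, had chrX:16612030-16613263 at 0.8 kb below its span, at series rank 52, replicate 1 rank 50 and replicate 2 rank 73. nhl-2, a TRIM-NHL cofactor of microRNA silencing, had a region at rank 209, and puf-9, a Pumilio-family RNA-binding protein, had one at rank 236. The Argonaute genes alg-1 and alg-2 had their strongest regions inside the span, at ranks 427 and 1048. Both replicates held all of these. dcr-1, which encodes Dicer, had no region within 5 kb.

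kin-20, a casein kinase gene related to the clock kinase Doubletime, had 3 regions within 1 kb, the strongest at series rank 157 inside the span. sea-2, a zinc finger gene, had 7 within 1 kb of its 21.8 kb span, 4 of them found in both replicates. lin-66, which acts to lower lin-28 activity, had 2, the stronger at rank 346. myrf-1, the worm's myelin regulatory factor, had 2, with the strongest at rank 1694, and the nuclear receptor gene nhr-25 also had 2, the stronger at rank 2385. Both replicates held the strongest region of each of these genes, though replicate 2 only weakly for myrf-1 (rank 2189 of 3138) and nhr-25 (rank 2894).

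At dre-1, nhr-23, nhr-85, lin-46, daf-12 and blmp-1 the strongest region was held by replicate 1 only. dre-1, an F-box gene, had 4 within 1 kb, the strongest at rank 1603, and none within 1 kb in replicate 2. The strongest region was at rank 3404 for nhr-23 and at rank 3529 for nhr-85, where it lay 3.6 kb above the span. It was at rank 3774 for lin-46, which acts downstream of lin-28, and at rank 7803 for daf-12, the steroid receptor gene. blmp-1, related to the mammalian factor Blimp1, had none within 1 kb and 2 between 1 and 5 kb, the stronger at rank 4892. din-1, a partner of DAF-12, had 4 within 1 kb, none of them found in both replicates. However, chrII:11633726-11636187, at rank 4 of the series list, 6 of replicate 1 and 7 of replicate 2, had its midpoint 1.3 kb above the span. It is wide and its near edge was within 1 kb of din-1, so only the midpoint rule kept it out of the count within 1 kb.

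No series region lay within 5 kb of mab-10, which encodes the cofactor of LIN-29, or of lep-2, a Makorin gene. The same was true of the adult collagen gene col-19, which LIN-29 activates, of dcr-1 and of lin-29 itself. Of all protein-coding genes, 52.2% had a series region within 5 kb. Among those of 3 to 8 kb, the range of mab-10 and lep-2, 38.2% had none. Among those of 15 to 21 kb, the range of lin-29, 18.6% had none. The spans of dcr-1 and col-19 fall in neither range.

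**Figure D4:**
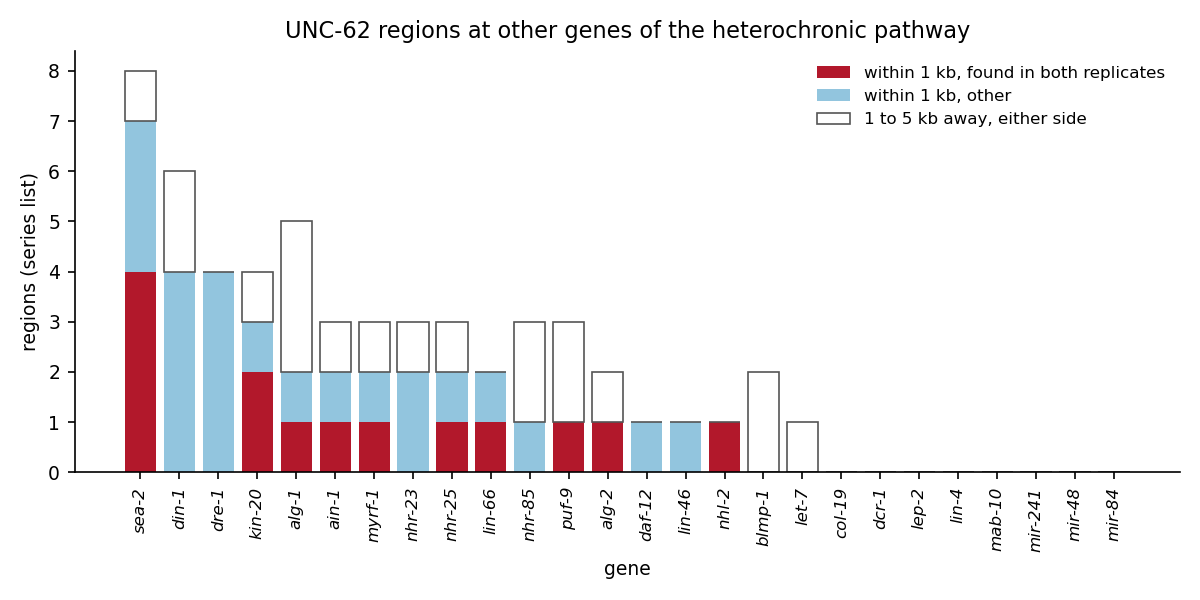
Number of series regions (y axis) at 26 further genes of the heterochronic pathway (x axis), within 1 kb of the span and found in both replicates (red), within 1 kb and not found in both (blue), and 1 to 5 kb away on either side (white). sea-2 has the most within 1 kb, 7, and 8 genes on the right have none within 5 kb.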

How the data were processed

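The authors deposited 3 lists of binding regions, a list per ChIP replicate and a series list. Positions are on WormBase WS220, per the file headers, and the files name PeakSeq as the caller. The sources used here do not give the aligner, the versions, the filters or how the series list was built. Per the labels' protocols, worms were fixed with 2% formaldehyde. The single value per region, deposited without a name, was read as a p-value or q-value and used only to rank regions within a list.

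Gene spans and names came from the RefSeq gene table of assembly WBcel235. All 6 members and all 26 genes of the wider list matched by symbol. No coordinate was converted. Regions were assigned by midpoint, and lists were matched by an overlap of at least 1 bp. Intervals are exact Clopper-Pearson (scipy 1.17.1, pandas 2.3.3). Window counting was tested on simulated regions. Every gene of the 6 is named, with every series region within 5 kb and every replicate region there that overlaps none of them. Of the wider list, every gene with a region is named. The members, the lists and the length classes were chosen with earlier results of these data known. No test between groups was made, and a planned motif search was not run.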

Additional observations from a re-analysis of the deposited data

How the results depend on the processing

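The count of 5 genes with a region held under every alternative run, and lin-29 had 0 in all of them. With strand unknown, the 18 to 22 regions became 16 to 18 with 2 kb in place of 5 kb upstream, 19 to 26 with 10 kb, 17 to 22 with windows moved by 100 bp either way, and 12 to 17 in the stronger 50% of the list. Taking 1 replicate's list, the lower count ranged from 7 to 19 and the upper from 13 to 25, and the wider list had from 10 to 16 genes at the lower count, the smaller numbers being those of replicate 2, which has fewer regions. Counting only regions to which no other gene of the table lay nearer left 13, fewer by construction. Against protein-coding genes alone, an alternative chosen after seeing the data like those of 1 kb or 5 kb on both sides, it left 15 to 17. The share found in both replicates was 41.7% with 50% reciprocal overlap, 45.8% with midpoints within 100 bp, 54.2% with values under 0.001 and 72.2% in the stronger 50% of the list. By gene and at the upper count, the moves of over 1.5 times were these. In replicate 2, lin-42 fell from 6 regions to 2 and lin-14 from 6 to 3. With 2 kb upstream lin-41 fell from 5 to 3 and hbl-1 from 2 to 1, and with 10 kb hbl-1 had 5. In the stronger 50% of the list lin-42 had 3. Within 1 kb lin-41 had 2 and hbl-1 had 1. Counting only regions nearest to the gene among all genes, lin-14 had 3, lin-28 fell from 3 to 1, lin-41 had 2 and hbl-1 had 1, and among protein-coding genes lin-28 had 1 and lin-41 had 2. No paired analysis was possible because no regions of Input samples were analysed and the ChIP samples form a single group. Depth is unknown and its limit on the counts cannot be given.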

Other observations

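Around hbl-1, further regions lay beyond the window. At 9.9 kb below its span lay chrX:5811759-5812714, 956 bp wide, at rank 22 of the series list and rank 23 in each replicate list. It overlapped F13D11.13, F13D11.22, F13D11.7 and F13D11.9, none of them protein-coding. No protein-coding gene lay within 5 kb of it, and the nearest was F13D11.3, at 5.8 kb edge to edge, closer than hbl-1. On the other side of hbl-1, chrX:5836951-5837366 lay 9.4 kb above the span (series rank 913, both replicates) and 0.7 kb from another gene, dct-11. Farther up, chrX:5840790-5841534 lay 13.4 kb above the hbl-1 span (series rank 236, both replicates). The last is the strongest region of puf-9, 0.4 kb from that gene by midpoint and 0.1 kb edge to edge. Of these 3, those at ranks 22 and 236 were stronger than the strongest region in the window (rank 441), and the one at rank 913 was weaker. All 3 were noticed after the values were seen.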
